A study of Arabidopsis thaliana with 4 samples.

Results

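Condensin and other mitotic chromosome proteins were followed through 4 genes in Arabidopsis thaliana seedlings that overexpress the microRNA miR396: ATSMC2 (AT3G47460), CAP-D3 (AT4G15890), 3xHMG-box1 (AT4G11080) and 3xHMG-box2 (AT4G23800). They were 4 of 13286 loci that could be read from a probe set of 1 gene, and all 4 passed the filter on low signals. They were chosen by their genotype ratios on these same 4 arrays, so the genotype values below are a description with no test. Total RNA of whole 10-day-old seedlings of the ecotype Col-0, grown on Murashige-Skoog salts under long days at 23 °C, was hybridised to Affymetrix arrays, 1 array per sample. The groups were wild type (arrays 1b and 2) and 35S:miR396 (arrays 1 and 2), in which the 35S promoter of cauliflower mosaic virus, active in most plant tissues, drives miR396. The labels do not state how many plants or transgenic lines an array holds, or whether replicates were grown separately, so the spread between them may be technical.

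Condensin is a ring-shaped protein complex that folds chromatin into compact chromosomes before cell division. Its core is a pair of SMC ATPases, of which the SMC2 type is shared by condensin I and condensin II, and each form adds its own HEAT-repeat subunits, CAP-D3 being one of condensin II. The 3xHMG-box proteins are plant proteins with several HMG-box DNA-binding domains that associate with condensed chromosomes during mitosis. In seedlings such genes are used mainly in the meristems and young leaf primordia, where cells divide. miR396 is known for repressing GROWTH-REGULATING FACTOR (GRF) genes, which promote leaf cell proliferation.

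The arrays differed in overall brightness, with median signals of 72.8 and 71.3 for wild type 1b and 2 and of 60.5 and 81.3 for 35S:miR396 1 and 2. Each signal was therefore divided by the median of its array (median centring), and ratios are given on the log2 scale of these values. None of 7 miR396-targeted GRF genes or of 2 genes of miR396 itself (0 in all) had a probe set of 1 gene in the annotation, so the overexpression was not checked. Green tissue was present on every array (5 of 7 photosynthesis markers read, summed signals 661.6 to 803.6 times the array median) and so was root (PYK10, 16.8 to 19.8 times). The only shoot meristem marker read, CLV3, had wild-type signals of 7.9 and 2.2 and a signal of 1.5 on both 35S:miR396 arrays, below the level kept for testing.

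ATSMC2, the SMC2-type condensin subunit, was lower in 35S:miR396 on each array. Wild type 1b gave a signal of 53.9, wild type 2 one of 48.8, 35S:miR396 1 one of 14.4 and 35S:miR396 2 one of 23.9. Relative to the array median it averaged 0.712 ± 0.0396 (SD, n = 2) over the wild-type arrays and 0.266 ± 0.0396 (SD, n = 2) over the 35S:miR396 arrays. The genotypes did not overlap, and the gap was larger than the spread within either genotype. The log2 ratio of 35S:miR396 to wild type was -1.64 in number 1 (35S:miR396 1 against wild type 1b) and -1.22 in number 2 (35S:miR396 2 against wild type 2), with a mean of -1.43 ± 0.30 (SD of both ratios), so wild type stood 2.69-fold higher. Across the 4 possible pairs of a wild-type and a 35S:miR396 array, wild type was 2.33-fold to 3.11-fold higher.

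The rank of ATSMC2 among all probe sets of an array, which needs no scaling, was also lower in 35S:miR396. It ranked at the 45.5th and 43.8th percentile of the signals on wild type 1b and 2, and at the 28.7th and 32.7th percentile on 35S:miR396 1 and 2. The dimmest 30% by mean log2 signal were not tested and the lowest mean kept was 15.8, so ATSMC2 lay near that limit on both 35S:miR396 arrays. A fold against signals this low is imprecise. ATSMC2 was 1 of 2 probe sets at least 2-fold lower in 35S:miR396 in every pair, or 0.0126% of 15923 tested, the other having no gene in the annotation. Such separation is part of what brought the gene into view, and nothing is read from this count.

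CAP-D3, the condensin II subunit, was not lower in 35S:miR396. Its signals were 53.3 and 53.1 on wild type 1b and 2, and 56.2 and 64.5 on 35S:miR396 1 and 2. Relative to the array median these averaged 0.738 ± 0.00891 (SD, n = 2) over the wild-type arrays and 0.861 ± 0.0959 (SD, n = 2) over the 35S:miR396 arrays, with both 35S:miR396 arrays above both wild-type arrays. The log2 ratio was 0.34 in number 1 and 0.09 in number 2, with a mean of 0.22 ± 0.18 (SD of both ratios), a 1.16-fold higher signal. Leaving out 35S:miR396 1 gave a mean of 0.10, and leaving out 35S:miR396 2 one of 0.33. In percentile rank CAP-D3 went from 45.3 and 45.1 on the wild-type arrays to 48.8 and 46.1 on the 35S:miR396 arrays.

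The condensin subunits thus lay on opposite sides of 0. The log2 ratio of ATSMC2 minus that of CAP-D3 was -1.98 in number 1 and -1.31 in number 2, with a mean of -1.65 ± 0.47 (SD of both differences), or 3.13-fold. Any factor common to an array cancels in this difference, and it was -1.65 on the deposited signals as well. It ranged from -1.91 to -1.38 when single arrays were left out. The difference was chosen with its values known and was not tested.

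**Figure D1:**
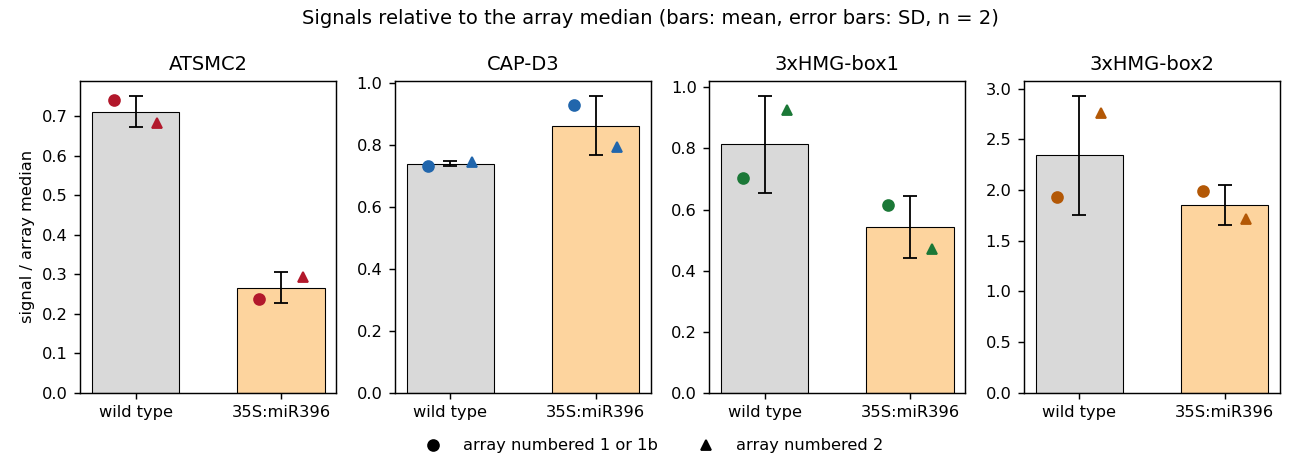
Signal divided by the array median (y axis, linear from 0, a scale of its own in each panel) for each gene in wild type and 35S:miR396. Circles are the arrays numbered 1 or 1b, triangles those numbered 2, bars the means and error bars the SD (n = 2). ATSMC2 averages 0.712 in wild type and 0.266 in 35S:miR396, CAP-D3 0.738 and 0.861, and 3xHMG-box2 overlaps between the genotypes.

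3xHMG-box1 was lower in 35S:miR396 on both arrays, but by unequal amounts. Its signals were 51.1 and 66.0 on wild type 1b and 2, and 37.2 and 38.4 on 35S:miR396 1 and 2. Relative to the array median it averaged 0.814 ± 0.158 (SD, n = 2) over the wild-type arrays and 0.544 ± 0.101 (SD, n = 2) over the 35S:miR396 arrays. The genotypes did not overlap, although the nearest arrays, wild type 1b at 0.702 and 35S:miR396 1 at 0.615, were close. The log2 ratio was -0.19 in number 1 and -0.97 in number 2, with a mean of -0.58 ± 0.55 (SD of both ratios). After centring most of the mean thus came from number 2, and the mean was -0.38 without wild type 2. The split depends on the scaling. It was less unequal on the deposited signals, with 51.1 against 37.2 in number 1 and 66.0 against 38.4 in number 2.

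3xHMG-box2, the close relative, separated the genotypes on the deposited signals and not after centring. Its signals were 140.4 and 196.6 on wild type 1b and 2, and 120.5 and 139.5 on 35S:miR396 1 and 2. Relative to the array median the wild-type values became 1.93 and 2.76 and the 35S:miR396 values 1.99 and 1.72, so that 35S:miR396 1 lay above wild type 1b. The log2 ratio was 0.05 in number 1 and -0.68 in number 2, with a mean of -0.32 ± 0.52 (SD of both ratios), smaller than its spread. Without wild type 2 the mean was -0.06, without 35S:miR396 2 it was -0.21 and without wild type 1b it was -0.58.

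The profiles of the 3xHMG-box genes lay nearer to each other across the arrays than to those of the condensin genes, though many other genes lay nearer still. Wild type 2 gave the highest value of both after centring and 35S:miR396 2 the lowest. The difference between their log2 ratios, box1 minus box2, was -0.24 in number 1 and -0.29 in number 2. With likeness measured as the Euclidean distance between centred log2 profiles over the 4 arrays, each minus its own mean, 3xHMG-box2 was 50th among 8736 single-gene probe sets nearest to 3xHMG-box1, at a distance of 0.298, and 3xHMG-box1 was 189th nearest to 3xHMG-box2. The distance from 3xHMG-box1 to ATSMC2 was 1.04 and to CAP-D3 0.848, and from 3xHMG-box2 it was 1.25 and 0.639. The nearest to 3xHMG-box1 were NGA1, AT3G56300 and AT5G15610 (distances 0.105 to 0.128), and to 3xHMG-box2 AT5G56460, TBL26 and AT5G33370 (0.0296 to 0.0628).

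ATSMC2 had no close match by this measure. The distance is not scaled to the size of a change, and few probe sets had so low a ratio. The lack of a match thus follows from the gap that chose ATSMC2, and nothing is read from it. Probe sets with no gene in the annotation were not compared. The profiles nearest to ATSMC2 were AT2G04050 at 0.430, AT5G27530 at 0.446 and the defensin gene PDF1.2b at 0.477. AT2G04050 had wild-type signals of 44.4 and 46.7 and 35S:miR396 signals of 12.7 and 29.2, a low-signal pattern like that of ATSMC2. CAP-D3, which varied little, had many near profiles, led by AT4G30825, AT4G28830 and AT2G18090 at 0.0127 to 0.0295. With 4 arrays, likeness says only that values rose and fell on the same arrays.

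**Figure D2:**
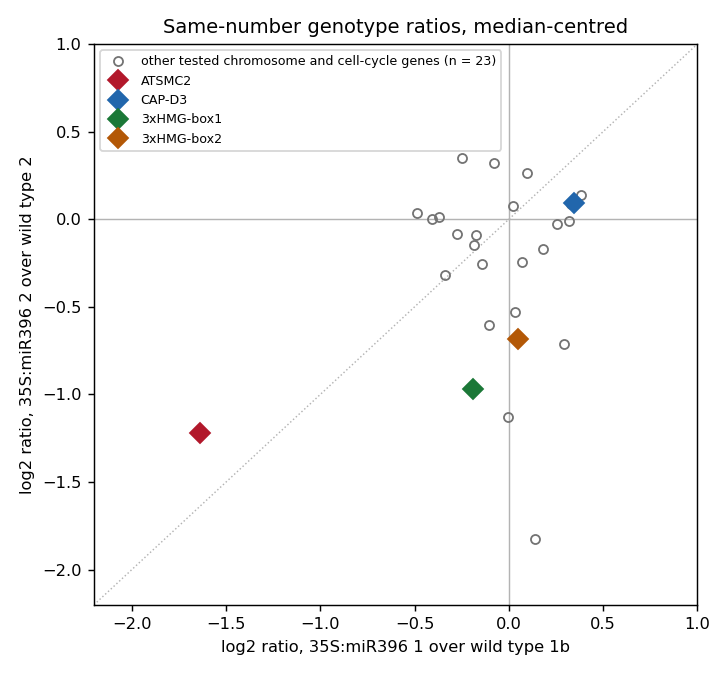
Median-centred log2 ratio of 35S:miR396 to wild type for the arrays numbered 1 (x axis) and numbered 2 (y axis). Diamonds are the 4 genes, open circles the 23 other tested chromosome and cell-cycle genes, and the dotted line marks equal ratios. ATSMC2 is low on both axes (-1.64 and -1.22), while the 3xHMG-box genes are low mainly on the y axis.

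Set against all probe sets, the counts over the 4 genes were as follows. After centring, 2 of 4 (ATSMC2 and 3xHMG-box1) had both 35S:miR396 values under both wild-type values, which held for 10.7% of the 15923 probe sets tested, and 1 of 4 (CAP-D3) had both above, which held for 9.18%. Both same-number ratios were below 0 for the same 2 genes, against 26.0% of all, and above 0 for CAP-D3, against 23.8%. The choice of the genes used these ratios, so the counts describe them and test nothing. Over all tested probe sets the median log2 ratio was -0.0035. A mean ratio below that of ATSMC2 was found for 14 probe sets, below that of 3xHMG-box1 for 2.03% and below that of 3xHMG-box2 for 6.90%, and 87.1% lay below CAP-D3. In limma's test of the genotypes 0 of the 15923 (0%) passed an adjusted p of 0.05, and 104 lay under an unadjusted p of 0.05. That is far under the share of 0.05 that would fall there with no difference, so this model may be too strict. This model left out the replicate number, although the difference between numbers correlated between the genotypes (r = 0.63). With the number as a block 18 of the 15923 passed, and 902 lay under an unadjusted p of 0.05. The block gave 5 on the deposited signals and 0 after quantile normalization. The 0 thus depends on the model.

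The difference between the replicate numbers was not the measure that chose the genes, although a choice of genes that separate the genotypes favours a small difference between numbers. In limma's comparison of number 2 with number 1, with genotype in the model, 22.3% of the 15923 probe sets passed an adjusted p of 0.05 and 0 of the 4 genes did (adjusted p = 0.606 for 3xHMG-box2, and 0.811 to 0.988 for the others). In wild type, 3xHMG-box1 was 1.32-fold and 3xHMG-box2 1.43-fold higher in number 2, whereas in 35S:miR396 they stood at 0.768 and 0.862 of their level in number 1. ATSMC2 stood at 0.924 of its number 1 level in wild type and was 1.24-fold higher in number 2 in 35S:miR396. CAP-D3 was nearly level in wild type (1.02-fold) and stood at 0.854 in 35S:miR396. Each of these is a ratio of 1 array to 1 array.

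Other condensin subunits were mostly not read. In the annotation 8730 of 22746 probe sets had no gene, so a gene not read here or in the lists below may still have a probe set. Of 7 further subunit genes on the list, 1 had a probe set of 1 gene, AT3G57060, with wild-type signals of 23.5 and 30.2 and 35S:miR396 signals of 3.2 and 14.2. Both 35S:miR396 arrays lay lower, with log2 ratios of -2.61 in number 1 and -1.28 in number 2, but its mean level lay under the filter and it was not tested. A ratio that rests on a signal of 3.2 is imprecise. The second SMC2-type gene, AT5G62410, had no such probe set, and whether the probe set of ATSMC2 also takes up its transcript was not tested.

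Cohesin, which holds sister chromatids together, and the related SMC5/6 complex had 3 of 22 genes tested. Their log2 ratios were 0.12 for AT5G51340, 0.26 for AT5G47690 and 0.12 for AT1G34770, and 0 passed the genotype test. Here and for the lists below, 0 of all 15923 tested probe sets passed as well, so this 0 says nothing about a list. AT5G47690, with wild-type signals of 72.8 and 75.2 and 35S:miR396 signals of 79.0 and 94.4, lay close to CAP-D3 in both same-number ratios (0.38 and 0.14).

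Of 13 other HMG-box genes listed, 5 were read and 4 tested, with a median log2 ratio of -0.02 and a range from -0.18 (AT1G76110) to 0.15 (AT3G13350), and 0 passed. AT5G23405 and AT2G34450 stood at -0.09 and 0.05. The median turned to 0.044 without wild type 1b and to 0.038 without 35S:miR396 2. In number 1 the 3xHMG-box genes were at -0.19 and 0.05, within the range of these 4, from -0.37 (AT1G76110) to 0.32 (AT3G13350). In number 2 the 3xHMG-box genes were at -0.97 and -0.68, and these 4 lay between -0.24 and 0.35. The ratios of the 3xHMG-box genes were among those that chose them, and the difference was not tested. AT5G23405 shared the signs of the ratios of 3xHMG-box2, with 0.069 in number 1 and -0.24 in number 2, but not its order of arrays. Relative to the array median AT5G23405 was highest on 35S:miR396 1 (1.055), with wild type 2 at 0.9986. AT1G04880 was under the filter, with wild-type signals of 1.9 and 10.2 and 35S:miR396 signals of 8.2 and 3.6.

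Centromere and kinetochore genes had 3 of 11 members tested, and 0 passed. Their median log2 ratio was -0.20 in the mean, but 0.032 in number 1 and 0.0027 in number 2, with 1 of 3 below 0 in each number. Without wild type 1b the median was 0.108, and without wild type 2 it was -0.047. HTR12, the centromeric histone H3, had wild-type signals of 29.9 and 38.8 and 35S:miR396 signals of 25.4 and 30.6, with log2 ratios of 0.03 in number 1 and -0.53 in number 2. TOPII, the topoisomerase that untangles DNA in mitosis, had a mean log2 ratio of -0.20 and AT4G39630 one of 0.18. Under the filter, the checkpoint gene BUBR1 had wild-type signals of 16.5 and 23.3 against 3.6 and 13.5, lower on both 35S:miR396 arrays. Also under it, AT3G54630 had 6.5 and 28.1 against 6.2 and 14.2, and WYR had 9.4 and 19.4 against 13.3 and 14.9.

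Of 29 listed genes of G2/M and cytokinesis, 5 were tested and 0 passed. Their median log2 ratio was 0.02 in number 1, where 2 of 5 lay below 0, against 47.9% of all tested probe sets. In number 2 it was -0.71, where 4 of 5 lay below 0, against 54.4% of all. KINESIN-12B, which acts in cytokinesis, was at -0.01 and -1.13, AT1G63100 at 0.14 and -1.83, the aurora kinase gene AUR1 at -0.10 and -0.60, and AUR2 at 0.29 and -0.71. AUR3 went the other way, at 0.020 and 0.077, and the difference between the numbers was not tested. These signs in number 1 depend on the centring. On the deposited signals AUR1 (118.0 to 91.2), AUR3 (45.1 to 38.0), KINESIN-12B (42.2 to 34.9) and AT1G63100 (21.0 to 19.2) were lower there in 35S:miR396. AUR2 (54.3 to 55.3) was not. The medians over all tested probe sets were 0.01 in number 1 and -0.02 in number 2. The G2/M median over both numbers was -0.35, and it was -0.62 without wild type 1b and -0.17 without wild type 2. ATSMC2 stood at -1.64 in number 1, below the lowest of these genes there. In number 2 it stood at -1.22, above AT1G63100 at -1.83. These ratios were among those that chose ATSMC2, so nothing is read from its place. In whole seedlings, fewer dividing cells and less RNA per dividing cell cannot be told apart, and the part of either in these values was not tested.

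The 8 tested of 21 listed S phase genes had a median log2 ratio of -0.17 (-0.18 in number 1 and -0.12 in number 2), and 0 passed. In the mean 6 of 8 lay below 0, against 50.8% of all tested probe sets. The median was -0.093 without 35S:miR396 1 and -0.108 without wild type 1b. The histone H2B gene HTB1 was at -0.33, AT2G28720 at -0.23, ICU2, a DNA polymerase subunit, at 0.21 and PRL, the MCM7 helicase subunit, at -0.20. Over the 6 lists 23 of 103 genes were tested.

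**Figure D3:**
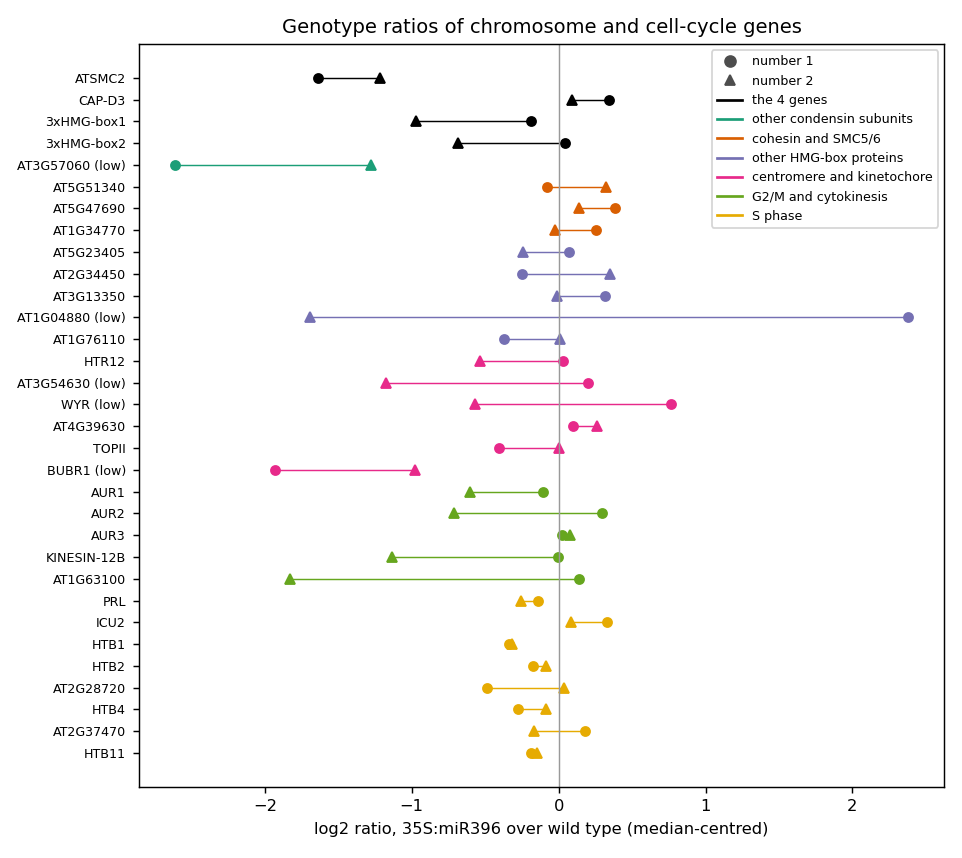
Median-centred log2 ratio of 35S:miR396 to wild type (x axis) in number 1 (circles) and number 2 (triangles) for the 4 genes and for every read gene of the 6 lists, coloured by list. Genes marked low were under the filter and not tested. ATSMC2, AT3G57060 and BUBR1 lie left of 0 in both numbers by about 1 log2 unit or more, and 4 of 5 G2/M genes lie left of 0 in number 2.

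The 4 mean ratios kept their side of 0 under each scaling. Centring raises every number 1 ratio and lowers every number 2 ratio, so most of its effect cancels in a mean. From the deposited signals it moves the 4 means by the same small amount, which could not turn any of them. The same-number ratios depend more on the scaling and were not followed across scalings. For ATSMC2 the mean log2 ratio was -1.47 on the deposited signals, -1.45 after quantile normalization and -1.32 with a pseudocount of 2.4. For CAP-D3 these were 0.18, 0.21 and 0.21, for 3xHMG-box1 -0.62, -0.60 and -0.55, and for 3xHMG-box2 -0.36, -0.33 and -0.32. In these means single arrays mattered more than scaling. With each left out, ATSMC2 stayed between -1.58 and -1.28, whereas 3xHMG-box2 ran from -0.58 to -0.06.

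**Figure D4:**
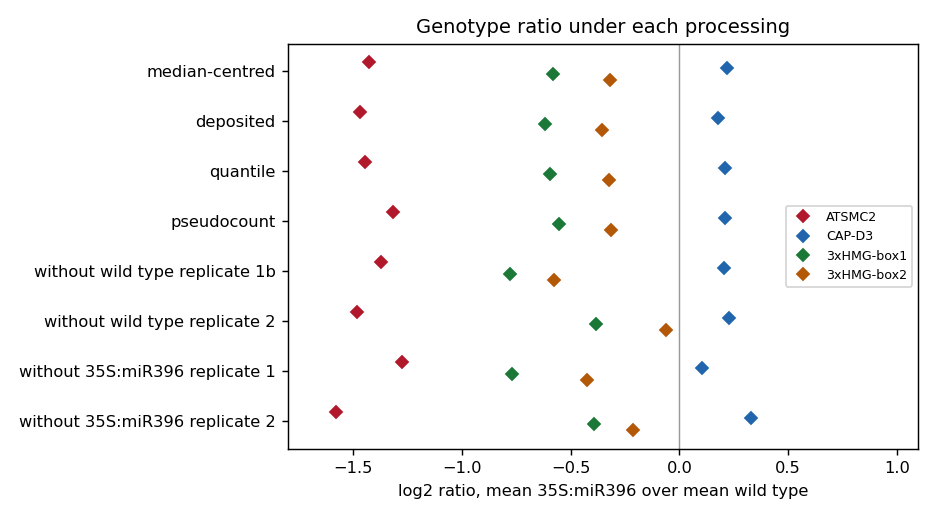
Mean log2 ratio of 35S:miR396 to wild type (x axis) of each gene under each scaling and with each array left out (rows). ATSMC2 stays between -1.58 and -1.28, CAP-D3 stays above 0, and 3xHMG-box2 comes nearest to 0 without wild type 2.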

How the data were processed

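The deposited table holds 1 signal intensity per probe set and array in linear units. Per the submitters' processing notes the authors used MAS5. Version, scaling target and detection calls of MAS5 are not given in the sources used here. Of 22810 probe sets, 64 controls were left out. Values at or under 0 (6 in all) were set to 0.1, log2 was taken, and each array was centred on its median, since the medians differed. A filter removed the dimmest 30% by mean log2 signal and kept 15923. Probe sets with 1 gene in the platform annotation were named through RefSeq names of TAIR10.1, which matched 13436 of them; no coordinates or sequences were used. Where several probe sets read a gene, the brightest on average was taken. limma 3.58.1 in R 4.3.3 (lmFit, eBayes with trend, two-sided, Benjamini-Hochberg, threshold 0.05) compared the genotypes without a block, and the replicate numbers with genotype in the model. The number of arrays, 2 per group, limits the precision. The scripts were tested on simulated data.

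The 4 genes and the lists were chosen with earlier results of these data known. Named are the 4 genes, every read gene of the condensin, cohesin, HMG-box and centromere lists, up to 4 of the other lists by absolute log2 ratio, and the 3 nearest profiles of each of the 4. AUR3 was named beyond this rule. AT5G47690 was compared with CAP-D3 after its values were seen. Planned looks at promoters and proteins were not made. Python 3.11.15, pandas 2.3.3, numpy 2.4.6 and matplotlib 3.10.9 made tables and figures.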

Additional observations from a re-analysis of the deposited data

How the results depend on the processing

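The mean log2 ratios of ATSMC2, CAP-D3, 3xHMG-box1 and 3xHMG-box2 kept their direction in 7 of 7 alternatives each. Going back to the deposited signals shifts all 4 means alike and by too little to turn them. For ATSMC2, CAP-D3 and 3xHMG-box1, whose genotypes did not overlap after centring, leaving out an array could not turn the direction. The same holds for the condensin difference, which lay between -1.91 and -1.38 with arrays left out. Only the sizes of these values are informative there. The count of probe sets passing the genotype test was 0 with arrays left out, other scalings, filters and eBayes settings (33 to 440 at an unadjusted p under 0.05). The labels do not state that the replicate number pairs the arrays, although over 15923 probe sets the difference between numbers correlated between the genotypes (r = 0.63). With the replicate number as a block 18 passed. Chosen after the data were seen, the block on deposited signals gave 5 (AT4G16260, LEA4-5, AT3G16670, AT3G02480 and an unnamed probe set) and with quantile normalization 0 (769 at an unadjusted p under 0.05). In every one of these fits 0 genes of the 6 lists passed. As at most 18 of all probe sets passed in any of them, nothing is read from this 0. The number comparison called 3552, against 888 on deposited signals and 375 without a trend. With an array left out it was run without genotype in the model, also chosen afterwards, and called 2290 to 2665. The list medians turned in 4 of 43 cases. That of other HMG-box genes was 0.051 without a filter and ran from -0.145 (without wild type 2) to 0.044 (without wild type 1b) with arrays left out, being 0.038 without 35S:miR396 2. That of centromere genes ran from -0.308 to 0.108, above 0 without wild type 1b only. With arrays left out the S phase median ran from -0.175 to -0.093 and the G2/M median from -0.622 to -0.167, below 0 throughout. The cause was not tested. Low signals limit ATSMC2 in 35S:miR396.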
